A study of Mus musculus with 2 samples.

Results

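A set of 8 nuclear receptor genes were followed through the cell types of the stria vascularis, the secretory epithelium on the lateral wall of the cochlear duct: Rorb, Rora, Nr2f1, Nr2f2, Esrrg, Thrb, Thra and Rxra. They were taken by gene symbol and are 8 of the 48816 features measured. Single nuclei were taken at postnatal day 30 (P30) from the stria vascularis of pooled CBA/J mice, in 2 libraries. In the library named MethFix the nuclei were fixed in methanol after isolation, and in the library named RNAlater the tissue was stored in RNAlater, a salt solution that preserves RNA, before nuclei were isolated. The labels name no treatment and no engineered allele, and the pooling means that no value can be assigned to an animal.

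Nuclear receptors are transcription factors that bind short DNA motifs, many of them built from the hexamer AGGTCA, and many of them change activity when a small lipophilic ligand such as a hormone or a vitamin derivative is bound. Thra and Thrb encode the receptors for thyroid hormone, a hormone that cochlear development and hearing depend on, and Rxra encodes a retinoid X receptor, the partner with which they pair on DNA. Rora, Rorb, Nr2f1, Nr2f2 and Esrrg encode so-called orphan receptors, named before any ligand was known. In the stria, marginal cells face the endolymph and secrete potassium, intermediate cells are the pigmented melanocyte-derived layer, basal cells close the tissue with tight junctions, and spindle and root cells lie at its edges towards the spiral prominence and the outer sulcus.

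The libraries are not independent of each other. They shared 3323 barcodes, or 70% of those in MethFix and 85.9% of those in RNAlater, and the counts at a shared barcode overlapped closely. All 1364 barcodes that were gated in both libraries fell in the same class in both. Counts are of UMIs (unique molecular identifiers, 1 per captured RNA molecule). At each barcode kept in both, the smaller of a member's MethFix and RNAlater counts was taken. Summed over barcodes, it came to between 83.5% and 98.6% of each member's MethFix UMIs. This is an overlap of counts, and single molecules were not matched between the libraries. RNAlater held 1.13 to 1.29 times as many UMIs of each member at these barcodes. The pair was therefore read as 1 sample, no p-value is given, and values from both libraries are printed side by side without being counted as replicates. Intervals are exact 95% intervals on the UMI count (Poisson) or on the share of nuclei (Clopper-Pearson), and they cover counting error only.

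MethFix held 4748 barcodes and 21027671 UMIs, with a median of 3469 UMIs per barcode, and RNAlater held 3868 barcodes and 17681824 UMIs, with a median of 3998. After filtering, 3372 and 2311 nuclei were kept. A nucleus was put in a class when it had at least 2 UMIs of that class's gate markers and these were at least 0.75 of its UMIs over all gate markers: Kcnq1 and Stac for marginal, Tyr and Dct for intermediate, Cldn11 for basal, Ceacam16 and Epyc for root and Anxa1 for spindle nuclei. In MethFix the gates held 1006 marginal, 1089 intermediate, 129 basal, 42 root and 26 spindle nuclei, and in RNAlater 682, 672, 133, 43 and 8. A nucleus lay near the cut when it had exactly 2 gate UMIs or a UMI of another class's marker. In MethFix this held for 79% of marginal, 43.7% of intermediate, 81.4% of basal, 71.4% of root and 96.2% of spindle nuclei. The gate markers summed to 681 UMIs in the basal and 382 in the spindle gate of MethFix. Levels are counts of UMIs per 1000000 UMIs of a class (CPM). A second definition, by whole clusters whose summed gate markers reached at least 0.4 of the highest cluster, gave 1105 marginal, 854 intermediate, 752 basal, 52 root and 97 spindle nuclei in MethFix and 668, 523, 593, 48 and 56 in RNAlater. The root class of this second definition left out a cluster rich in Slc26a4 and Rspo2, described below. The members and the other listed genes were left out of the genes used for clustering.

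Each gate was checked with further markers that it did not use. The check markers of marginal nuclei summed to 10215 CPM in the marginal gate of MethFix, those of intermediate nuclei to 6151 in the intermediate gate, those of basal nuclei to 1794 in the basal gate, those of root nuclei to 3945 in the root gate, and those of spindle nuclei to 9320.3 in the spindle gate. The rare gates also held markers of other classes. The marginal check markers summed to 3717 CPM in the spindle gate of MethFix and 3671 in that of RNAlater, to 1317 and 1197 in the root gates and to 625 and 554 in the intermediate gates. The spindle check markers summed to 1393 and 1101 CPM in the root gates, and the root check markers to 1248 and 1435 in the spindle gates. Slc26a4 is in both of these lists and counts in both sums, so the sums are no measure of mixing between root and spindle nuclei. In RNAlater 3 of the 5 spindle markers had a UMI in the root gate, and 3 of the 5 root markers in the spindle gate. The part of markers of other classes in the root and spindle levels of the members was not tested. Marker lists of Reissner membrane, fibrocytes or bone, macrophages, endothelium, pericytes and neurons summed to at most 152 CPM in any gate, and the Schwann cell list reached 362.

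The members fell into different classes of the stria. Esrrg was highest in marginal nuclei, Nr2f2 in basal nuclei, and Rorb, Nr2f1 and Thrb in root nuclei, each at least 2-fold above the mean of the other 4 gates in both libraries. Rora was abundant in every class and highest in root and marginal nuclei, while Thra and Rxra reached 2-fold in no class of both libraries. By the same 2-fold rule, 4.64% of 10457 genes were called in marginal nuclei, against 1 of the 8 members, and 4.41% in basal nuclei, also against 1. In root nuclei 4.37% of the genes were called, against 3 members, of which Rorb is no longer called without 1 small cluster described below (log2 ratio 0.23). Nr2f1 had 1 and 0 UMIs in a further cluster with root markers that lay mostly outside the gate. No member was called in intermediate nuclei, where 3.61% of the genes were, or in spindle nuclei, where 7.48% were. The median over the members of the log2 ratio of root nuclei to the mean of the other gates was 0.60, beside -0.37 over all genes tested, and in marginal nuclei it was -1.13 beside -0.35.

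**Figure D1:**
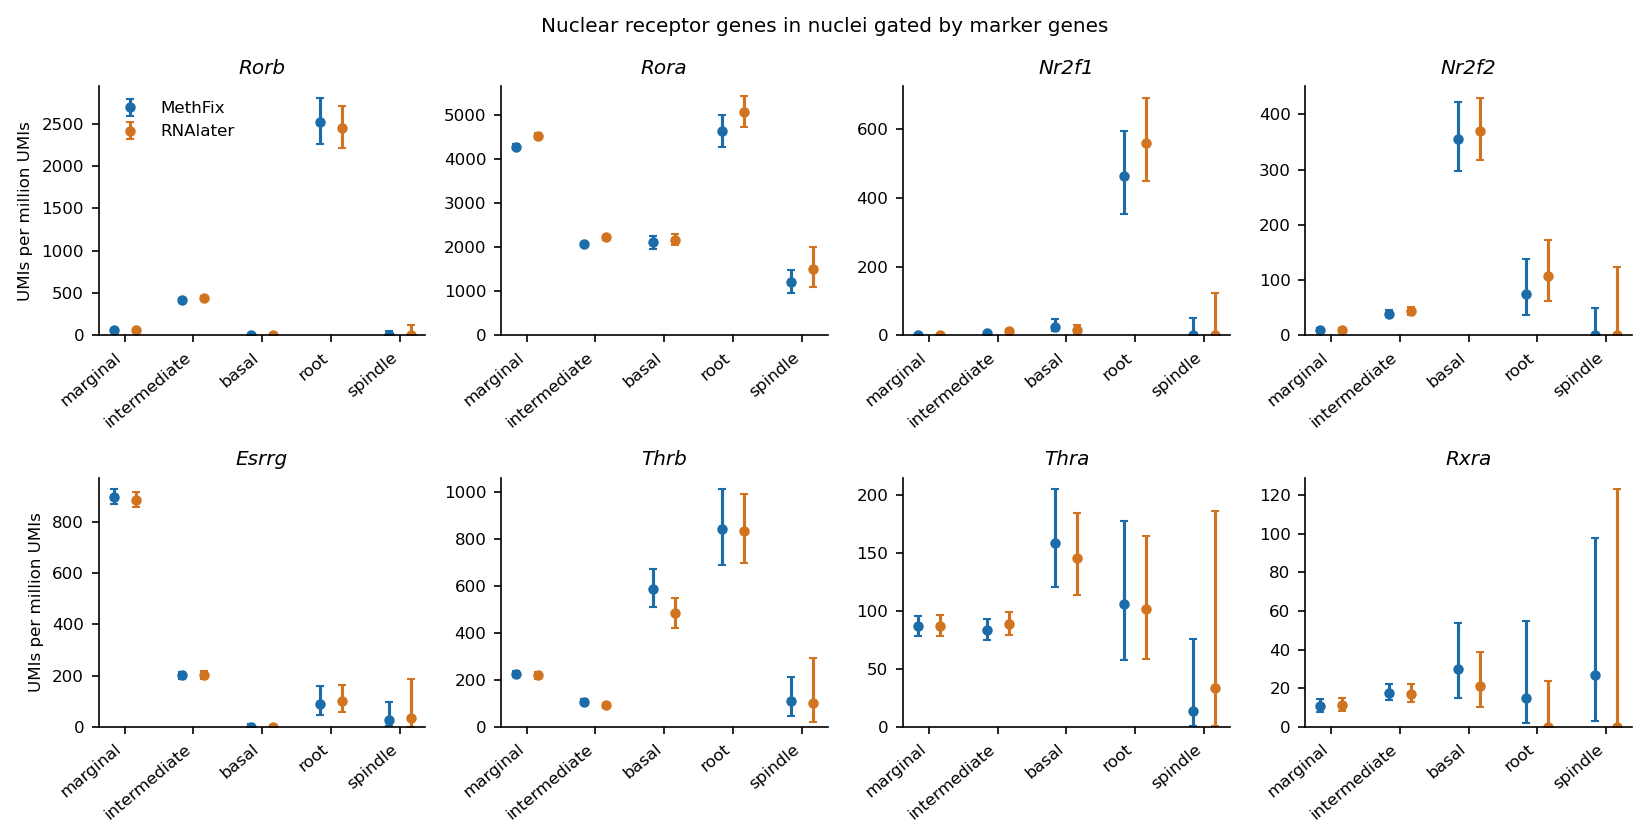
Level of each of the 8 members (CPM, UMIs per 1000000, on an axis from 0) in the 5 gated classes, with 1 point per library and bars for the exact 95% Poisson interval. Esrrg peaks in marginal nuclei at 899 CPM in MethFix and 887 in RNAlater, and Nr2f2 in basal nuclei at 356 and 370.4. Rorb peaks in the root gate at 2521 and 2451. Of these Rorb UMIs, 95.5% and 95.8% lay in 1 small cluster with only part of the root markers. Without that cluster the root gate was at 173 and 159 CPM.

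Rorb encodes retinoid-related orphan receptor beta, best known from retina and brain. It lies on chromosome 19 of GRCm38 from 18930605 to 19111196 on the minus strand. In MethFix it had 333 UMIs in root nuclei, a level of 2521 CPM (95% interval 2258 to 2807), 1721 UMIs in intermediate nuclei (422 CPM, 402 to 442) and 273 UMIs in marginal nuclei (61.2 CPM, 54.2 to 68.9). In RNAlater these levels were 2451, 438 and 65.6. Basal nuclei had a single UMI (1 in MethFix, 0 in RNAlater), and spindle nuclei had 0 UMIs in either library, which at their depth allows levels of up to 50 and 123 CPM. The root level was at least 19.2-fold the mean of the other gates in MethFix and at least 16.1-fold in RNAlater. By the gates, the order root, intermediate, marginal was the same in both libraries, which share most of their barcodes. The intervals did not overlap between neighbours, but they cover counting error only. The place of root rests on 1 small cluster, as given below. Without that cluster the root gate was at 173 and 159 CPM, below the intermediate gate.

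At full depth, the share of nuclei with a Rorb UMI gave another order than the level. It was 42.9% of root nuclei and 51.3% of intermediate nuclei in MethFix, and 37.2% and 58.3% in RNAlater. The root nuclei with a Rorb UMI held very unequal numbers of them, as given below. With every nucleus thinned to 1000 UMIs and shallower ones left out (5 root and 65 intermediate nuclei in MethFix, 4 and 15 in RNAlater), the shares were 35.1% of root and 26.2% of intermediate nuclei in MethFix and 30.8% and 28.3% in RNAlater. After thinning, root thus stood above intermediate nuclei in share, but the intervals overlapped in both libraries. Marginal nuclei had a Rorb UMI in 11.6% and 14.7% of nuclei before thinning and in 4.19% and 5.32% after it. As a gauge of RNA free in the suspension, Met and Pax3, markers of intermediate nuclei, stood at 0.462% to 2.81% and at 0 to 0.58% of their own level in the other classes. All 7 intermediate check markers together summed to 545 CPM in the marginal gate of MethFix, beside 6151 in their own. By clusters of MethFix, Rorb was at 58.5 CPM in marginal, 477 in intermediate and 5.69 in basal nuclei. The part of free RNA in these levels was not tested.

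Nearly all of the root Rorb came from a single small cluster. Within the root gate, 318 of 333 Rorb UMIs in MethFix (95.5%) and 369 of 385 in RNAlater (95.8%) lay in nuclei of a cluster rich in Kcnb2 and Dgkb, which had 14 nuclei in MethFix and 13 in RNAlater, every one at a shared barcode. Without that cluster the root gate kept 30 nuclei in each library, and Rorb there was at 15 UMIs or 173 CPM (96.9 to 286) in MethFix, and at 16 UMIs or 159 CPM (90.7 to 258) in RNAlater, both below the intermediate gate. Rorb was thus lower, not higher, in the remaining root-gated nuclei than in intermediate nuclei. Of these remaining nuclei, 22 in MethFix and 23 in RNAlater were of a cluster rich in Otogl and Srgap1. A cluster rich in Slc26a4 and Rspo2, mostly outside the gate, had more Rorb than the intermediate gate, as given below. A gate set with Epyc as the only root marker, which the Kcnb2 and Dgkb cluster lacks, used 1 marker for each other gate. Its log2 ratio of root nuclei to the other gates was 0.31, averaged over both libraries, so the 2-fold call was lost.

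Root markers were found in 3 clusters. The Kcnb2 and Dgkb cluster had Ceacam16, which encodes a protein of the tectorial membrane, at 6490.5 CPM in MethFix and 7169 in RNAlater, and Otogl, encoding otogelin-like, at 1376 and 1103. It had no UMI of Epyc, the other root gate marker, none of Slc26a4, which encodes the anion exchanger pendrin, and none of Rspo2. A cluster rich in Otogl and Srgap1, of 38 and 35 nuclei, had Ceacam16 at 2978 and 2573, Epyc at 1281 and 1159 and Slc26a4 at 650.0 and 729.8. A cluster rich in Slc26a4 and Rspo2, of 34 nuclei in each library, had Slc26a4 at 4462 and 4399 and Lgr5 at 1275 and 1279, and only 7 and 6 of its nuclei passed the root gate. The first of these has part of the root markers only, so it is called here by its leading genes.

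Rorb separated the 3 clusters. In the Kcnb2 and Dgkb cluster its MethFix level was 6695 CPM (6021 to 7424) and its RNAlater level 6565 (5912 to 7269.7), with a UMI in 12 of 14 and 11 of 13 nuclei. In the Otogl and Srgap1 cluster it was at 116 (60.2 to 203) and 119 (63.1 to 203). In the Slc26a4 and Rspo2 cluster it was at 807 (653 to 987) and 731 (597 to 886), between the other two, with a UMI in 25 and 26 of 34 nuclei. On the log2 scale the first stood above the second by 5.85 in MethFix (5.02 to 6.81) and by 5.79 in RNAlater (5.00 to 6.71). The Slc26a4 and Rspo2 cluster stood above the Otogl and Srgap1 cluster by 2.79 (1.92 to 3.80) and 2.62 (1.79 to 3.58). Its Rorb level was also above that of the intermediate gate in both libraries.

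One nucleus weighed heavily in this level. The same barcode held 155 of the 360 Rorb UMIs of the Kcnb2 and Dgkb cluster in MethFix (43.1%) and 193 of 369 in RNAlater (52.3%), while the next nucleus had 42 and 40 and the median nucleus 13 and 12. Without it the cluster stood at 4279.7 CPM (3714 to 4907) and 3582 (3073 to 4152), still above every gated class other than root. The root gate without it was at 1410.4 CPM (1211 to 1634) and 1279.9 (1105 to 1474), and the log2 ratio to the other gates was 3.42 and 3.07 in place of 4.26 and 4.01.

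**Figure D2:**
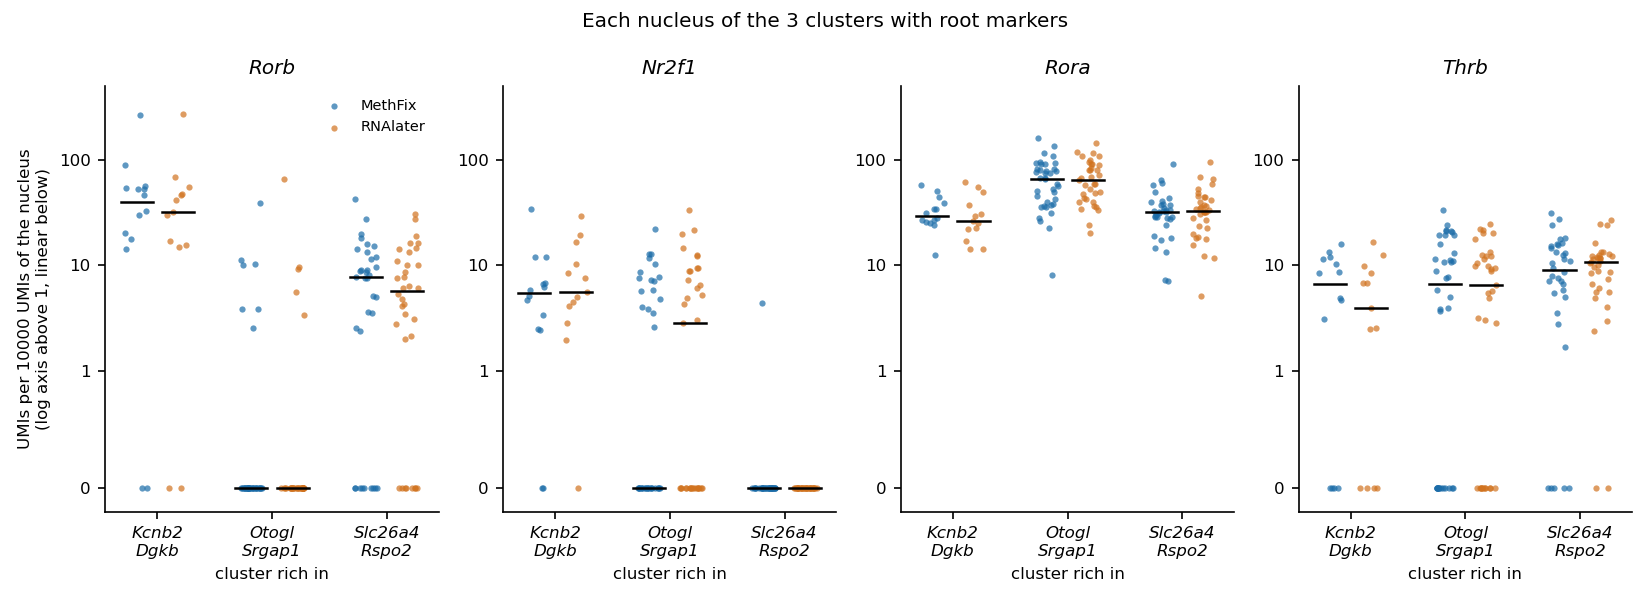
Rorb, Nr2f1, Rora and Thrb in UMIs per 10000 UMIs of the nucleus (log axis above 1, linear below) in the 3 clusters with root markers, 1 point per nucleus, with a line at the median of each library. For Rorb most nuclei of the cluster rich in Kcnb2 and Dgkb lie highest and 1 of them stands far above the rest, holding 43.1% of the cluster's Rorb UMIs in MethFix and 52.3% in RNAlater.

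Otog, Cldn14 and Pde4b, which the study named as putative targets of Rorb from these same libraries, were all called in root nuclei, where 4.37% of all genes were, and because of that choice they are not independent evidence. Cldn14 was also called in spindle nuclei, at 569.8 and 300.3 CPM on 42 and 9 UMIs. Otog, which encodes otogelin of the tectorial membrane, was at 1562 and 1494 CPM in the Kcnb2 and Dgkb cluster, 291 and 392 in the Otogl and Srgap1 cluster and had 0 UMIs in the Slc26a4 and Rspo2 cluster. Its order thus differed from that of Rorb, which was higher in the last of these than in the Otogl and Srgap1 cluster. Cldn14, which encodes a tight junction claudin, was at 632 and 516, 437 and 474, and 255 and 267 in the same order of clusters. Pde4b, which encodes a phosphodiesterase that breaks down cyclic AMP, ran the other way, at 8108 and 7489.6, 10283 and 10801, and 23917 and 23395.

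The promoter sequence is shown, because receptors of this family bind at letters of this kind, for Rorb, for Cldn14 as a putative target and for Thrb, whose own receptor binds the same hexamer. The windows run from 250 bases before to 50 after the transcription start in RefSeq on GRCm38.p6 and are printed along the strand of the gene, with every AGGTCA, read on both strands, in capitals. Rorb lies at chr19:19111147-19111446 on the minus strand, Thrb at chr14:17660710-17661009 on the plus strand and Cldn14 at chr16:94008788-94009087 on the minus strand.
Rorb: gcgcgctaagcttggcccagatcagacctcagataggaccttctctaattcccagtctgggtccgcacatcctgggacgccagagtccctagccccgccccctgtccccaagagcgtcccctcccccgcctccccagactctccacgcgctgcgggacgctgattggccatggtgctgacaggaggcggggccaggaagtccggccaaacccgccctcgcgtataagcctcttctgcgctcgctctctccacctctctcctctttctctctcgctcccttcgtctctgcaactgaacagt
Thrb: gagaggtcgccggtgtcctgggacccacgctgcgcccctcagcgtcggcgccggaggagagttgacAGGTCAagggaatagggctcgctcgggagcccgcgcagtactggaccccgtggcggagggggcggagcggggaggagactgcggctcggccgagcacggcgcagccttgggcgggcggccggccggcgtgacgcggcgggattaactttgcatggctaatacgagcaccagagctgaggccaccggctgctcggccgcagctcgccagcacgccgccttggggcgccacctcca
Cldn14: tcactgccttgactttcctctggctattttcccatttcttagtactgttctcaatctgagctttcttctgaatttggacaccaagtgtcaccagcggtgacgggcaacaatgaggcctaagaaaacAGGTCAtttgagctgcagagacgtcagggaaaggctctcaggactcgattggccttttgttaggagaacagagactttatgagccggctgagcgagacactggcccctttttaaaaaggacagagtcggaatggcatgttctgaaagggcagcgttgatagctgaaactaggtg
Each is the window of the first start listed there for its gene. The Rorb window holds no AGGTCA, that of Thrb holds 1, beginning 184 bases before the start, and that of Cldn14 holds 1, beginning 124 bases before it. The other 2 Cldn14 windows also hold 1 each. Of the other putative targets, the 1 window of Otog holds none, and 1 of the 4 windows of Pde4b holds 1. AGGTCA on either strand was in 5340 of 32851 such windows of all genes (16.3%), and TNAAGGTCA, a longer form that contains it, in 421 (1.28%) and in none of the 3 shown. The table has no window for Thra. Of the 14 windows of the other 7 members, 1 of Thrb and 1 of Rxra held AGGTCA. A match is a string of letters, not a site shown to be bound.

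Rora, the paralog of Rorb, was found in most nuclei of every class. It encodes retinoid-related orphan receptor alpha, known for its part in the circadian clock, and lies on chromosome 9 from 68653786 to 69388246 on the plus strand. In MethFix it was at 4626 CPM in root nuclei (4267 to 5008), 4277 in marginal nuclei (4216 to 4338), 2109 in basal nuclei, 2062 in intermediate nuclei and 1207 in spindle nuclei (969.7 to 1486), with a UMI in 87.6% of nuclei or more in each class. In RNAlater the levels were 5067, 4528, 2172, 2223 and 1502, so basal and intermediate nuclei exchanged places between the gates of the libraries. By clusters intermediate stood above basal in both, by 0.22 on the log2 scale for MethFix (0.16 to 0.28), and at 2180.3 CPM beside 1751 in RNAlater. Root and marginal nuclei also lay close, with MethFix giving a log2 ratio of 0.11 (-0.01 to 0.23) and RNAlater 0.16 (0.06 to 0.26). By clusters this ratio was 0.28 (0.18 to 0.39) and 0.24 (0.14 to 0.34), where the root clusters leave out the cluster rich in Slc26a4 and Rspo2. The ratio of marginal to intermediate nuclei by clusters was 1.09 and 1.05.

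Among the clusters with root markers, Rora was highest where Rorb was lowest. It was at 3329 and 3273 CPM in the Kcnb2 and Dgkb cluster and 6083 and 6404 in the Otogl and Srgap1 cluster, a log2 ratio of -0.87 and -0.97. The share of Rorb among the UMIs of the pair was 35.3% (32.2 to 38.4) in root nuclei of MethFix and 32.6% (29.9 to 35.4) in RNAlater, 17% and 16.5% in intermediate nuclei, 1.41% and 1.43% in marginal nuclei and at most 0.13% in basal nuclei. These shares are of UMIs and are not corrected for gene length, which is 181 kb for Rorb and 734 kb for Rora. The root share pools unlike clusters. In the whole Kcnb2 and Dgkb cluster, Rorb and Rora had 360 and 179 UMIs in MethFix and 369 and 184 in RNAlater. The Slc26a4 and Rspo2 cluster had 95 and 406 in MethFix and 104 and 525 in RNAlater. The Otogl and Srgap1 cluster had 12 and 627 in MethFix and 13 and 702 in RNAlater. In UMI totals, Rorb thus exceeded Rora in the Kcnb2 and Dgkb cluster only. There 1 nucleus held 155 and 193 of the Rorb UMIs. The median nucleus of that cluster had 13 Rorb and 11 Rora UMIs in MethFix and 12 of each in RNAlater.

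**Figure D3:**
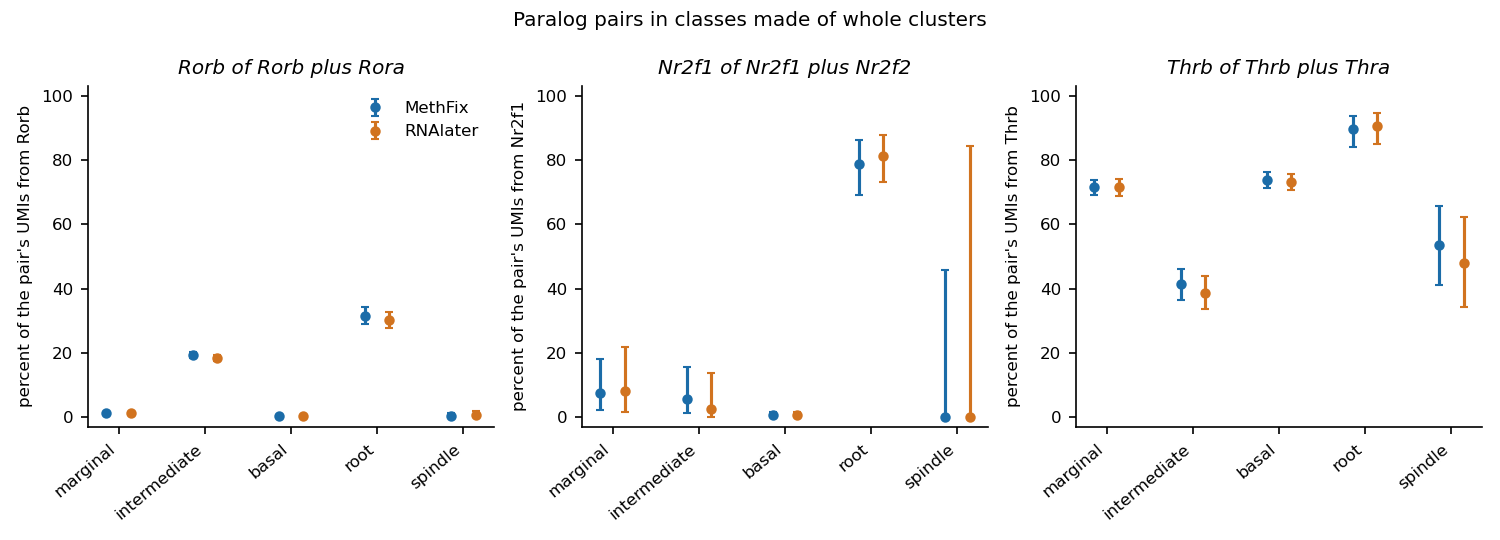
Share (percent) of the first gene among the UMIs of 3 pairs of related receptors (Rorb with Rora, Nr2f1 with Nr2f2, Thrb with Thra) in classes made of whole clusters, 1 point per library, with exact binomial 95% intervals. Nr2f1 makes up 78.6% and 81.3% of its pair in root clusters but 0.803% and 0.831% in basal clusters. The root clusters leave out the cluster rich in Slc26a4 and Rspo2. That cluster had 1 and 0 Nr2f1 UMIs beside 9 and 12 of Nr2f2.

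Nr2f1 and Nr2f2 encode the COUP transcription factors I and II, close relatives that guide cell fate in many developing tissues. Nr2f1 lies on chromosome 13 from 78188973 to 78199757 on the minus strand and Nr2f2 on chromosome 7 from 70351944 to 70366735 on the minus strand. Among the gates, Nr2f1 was highest in root nuclei. It had 61 UMIs or 462 CPM (353 to 593) there in MethFix and 88 UMIs or 560.2 CPM (449 to 690.1) in RNAlater. A Nr2f1 UMI was found in 54.8% and 60.5% of these nuclei. Of the root-gated Nr2f1 UMIs, 59% and 54.5% lay in the Kcnb2 and Dgkb cluster. The Slc26a4 and Rspo2 cluster, mostly outside the gate, had 1 and 0 Nr2f1 UMIs. The other gates held at most 24.6 CPM in MethFix and 14.8 in RNAlater, and spindle nuclei had 0 UMIs. The root level was at least 25.5-fold and 17.4-fold the mean of the others.

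Nr2f2 was highest in basal and next in root nuclei, and by the gates its classes had the same order in both libraries. It had 130 UMIs or 356 CPM (297 to 422) in basal nuclei of MethFix and 175 UMIs or 370.4 CPM (318 to 429.6) in RNAlater, in 54.3% and 57.9% of the nuclei. Root nuclei followed at 75.7 (36.3 to 139) and 108 (63 to 173), intermediate nuclei at 38.7 and 43.2 and marginal nuclei at 9.87 and 9.38. On the log2 scale basal stood above root by 2.23 in MethFix (1.31 to 3.33) and by 1.78 in RNAlater (1.05 to 2.59). By clusters basal stood above root by 1.39 and 1.45. The lower places changed by clusters. In MethFix intermediate stood above marginal nuclei by 0.51 (-0.09 to 1.11), in place of 1.97 by the gates, and spindle nuclei (6 UMIs) ranked above both. In RNAlater spindle nuclei (2 UMIs) lay between intermediate and marginal nuclei. Nr2f1 made up 85.9% (75.6 to 93) and 83.8% (75.3 to 90.3) of the UMIs of the pair in the root gate but 6.47% and 3.85% in the basal gate.

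Nr2f1 was found in another pair of the clusters with root markers than Rorb. It was at 744 and 854 CPM in the Kcnb2 and Dgkb cluster and at 359 and 474 in the Otogl and Srgap1 cluster, a log2 ratio of 1.05 (0.37 to 1.74) and 0.85 (0.25 to 1.44). For the Slc26a4 and Rspo2 cluster MethFix gave 1 Nr2f1 UMI and RNAlater 0, although it carried Rorb in most nuclei. Sall2, a zinc finger gene that the study tied to Nr2f1 in these libraries, was at 186 and 213 in the first of them and at 58.2 and 82.1 in the second. Both COUP genes overlap a gene on the opposite strand (A830082K12Rik and B130024G19Rik), and the study's methods give the default settings of Cell Ranger for a 3′ kit, which count reads by strand.

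The same root-gated nuclei were also split by pendrin. Since the Kcnb2 and Dgkb cluster has no Slc26a4 UMI, all of its nuclei fall among those without, and the split restates the values of that cluster. Root-gated nuclei without a Slc26a4 UMI (24 in each library) had Rorb at 4210.0 and 4005 CPM and Nr2f1 at 728 and 836. Those with a Slc26a4 UMI (18 and 19) had Rorb at 265 and 246 and Nr2f1 at 106 and 169. Rora was higher in the nuclei with Slc26a4, at 5147 and 6095 beside 4236 and 4342, and Thra was at 195 and 169 beside 39.7 and 54.3.

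Esrrg marked the marginal cells. It encodes estrogen-related receptor gamma, a factor known for driving mitochondrial and ion transport genes, and lies on chromosome 1 from 187608791 to 188214885 on the plus strand. Marginal nuclei had 4010 UMIs or 899 CPM (872 to 928) in MethFix and 3501 UMIs or 887 CPM (858 to 917) in RNAlater, in 86.6% and 90.8% of nuclei. Intermediate nuclei followed at 202 (188 to 216) and 201 (186 to 217), root nuclei at 90.9 and 102 and spindle nuclei at 27.1 and 33.4. Basal nuclei had 0 UMIs, which allows up to 10.1 and 7.81 CPM.

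The gap between neighbours in this order was wide at the top, with marginal above intermediate nuclei by a log2 ratio of 2.16 (2.05 to 2.27) for MethFix and 2.14 (2.02 to 2.27) for RNAlater. By clusters it was 2.12 and 2.01. The intermediate level is not even: the 3 intermediate clusters of MethFix had Esrrg at 149, 289 and 145 CPM, and those of RNAlater at 151, 283 and 265. The intermediate gate of MethFix also carried 625 CPM of the marginal check markers, beside 10215 in the marginal gate. Atp13a5, a marginal marker, reached 0.429% to 4.34% of its own level outside its class. The part of carry-over in the intermediate Esrrg level was not tested.

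Thrb was highest in root and basal nuclei and present in every class. It encodes thyroid hormone receptor beta, the form whose loss causes deafness, and lies on chromosome 14 from 17660261 to 18038090 on the plus strand. The MethFix level in root nuclei was 840.5 CPM (691 to 1012) and the RNAlater level 834 (697 to 989.5), with basal nuclei at 588 (512 to 672) and 483 (422 to 549.5), marginal nuclei at 224 and 219.8, spindle nuclei at 109 and 100.1 and intermediate nuclei at 107 and 92.1. On the log2 scale root stood above basal by 0.52 in MethFix (0.17 to 0.85) and by 0.79 in RNAlater (0.47 to 1.11), while the gates do not separate spindle nuclei, with 8 and 3 UMIs, from intermediate nuclei. By clusters, spindle stood above intermediate by 1.44 in MethFix and 1.52 (0.86 to 2.14) in RNAlater, with both intervals above 0. Also by clusters, root was above basal by 1.11 and 0.97 and basal above marginal by 1.09 and 1.15.

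Over the clusters with root markers Thrb spanned a narrower range than Rorb, at 818 and 694 CPM in the Kcnb2 and Dgkb cluster, 1087 and 1040.0 in the Otogl and Srgap1 cluster and 1045 and 1026 in the Slc26a4 and Rspo2 cluster. The log2 ratio of the last to the second was -0.06 and -0.02. The Kcnb2 and Dgkb cluster was lower than the Otogl and Srgap1 cluster, with a ratio of -0.41 (-0.95 to 0.11) for MethFix and -0.58 (-1.15 to -0.05) for RNAlater. Basal nuclei varied more, since 1 of the 3 basal clusters of MethFix, rich in Sorcs3, reached 636 CPM beside 399 and 438.

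Thra encodes thyroid hormone receptor alpha, the more general form, and lies on chromosome 11 from 98740638 to 98769006 on the plus strand. It was at 159 CPM (120.5 to 205) in basal nuclei of MethFix, 106 (58 to 178) in root nuclei, 87 in marginal and 84 in intermediate nuclei, and in RNAlater at 146, 102, 86.9 and 88.7. Basal and root nuclei do not differ beyond counting error by the gates, with a log2 ratio of 0.58 (-0.28 to 1.54) and 0.52 (-0.28 to 1.40). By clusters the basal level was above the marginal level by 0.92 (0.70 to 1.13) and 1.03 (0.82 to 1.25). Thra overlaps Nr1d1 on the opposite strand at its end.

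The balance of both thyroid hormone receptors differed between classes. Thrb made up 88.8% and 89.1% of their UMIs in root nuclei, 78.8% and 76.8% in basal nuclei, 72% and 71.7% in marginal nuclei and 56% and 50.9% in intermediate nuclei. By clusters the share in intermediate nuclei was 41.3% (36.6 to 46.2) and 38.7% (33.5 to 44), which makes Thra the more counted of the pair there, and in spindle nuclei it was 53.6% and 48.1%. Thra spans 28.4 kb and Thrb 378 kb, and the shares are not corrected for this.

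Rxra, on chromosome 2 from 27676440 to 27762957 on the plus strand, rests on few UMIs. Its levels in MethFix were 30.1 CPM (15 to 53.8) in basal nuclei, 27.1 in spindle, 17.6 in intermediate, 15.1 in root and 10.8 in marginal nuclei, where spindle and root rest on 2 UMIs each. In RNAlater root and spindle nuclei had 0 UMIs. Of the neighbours in this order, the gates separate only intermediate from marginal nuclei, and only in RNAlater, by 0.63 on the log2 scale (0.03 to 1.23). By clusters the basal level was above the marginal level by 1.30 (0.73 to 1.88) and 1.25 (0.63 to 1.87).

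Because the libraries share most of their barcodes, levels were also taken from the MethFix barcodes that RNAlater did not have: 257 marginal, 386 intermediate, 21 basal, 3 root and 12 spindle nuclei. The gated nuclei at barcodes of RNAlater alone were 5 intermediate and 2 root nuclei, too few for levels. In the MethFix nuclei Rorb was at 322 CPM (289 to 357) in intermediate and 50.3 in marginal nuclei, Esrrg at 949 (877 to 1025) in marginal and 220.3 in intermediate nuclei, and Rora at 3402 and 1668 in marginal and intermediate nuclei. Nr2f2 was at 292 (155 to 499) and Thrb at 561 (363 to 828) in basal nuclei. Without the shared barcodes, Rorb thus remained higher in intermediate than in marginal nuclei, and Esrrg and Rora higher in marginal than in intermediate nuclei. The 3 root nuclei had 0 Rorb UMIs, so the root levels given above rest on shared barcodes except for those 3 nuclei in MethFix and 2 in RNAlater.

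**Figure D4:**
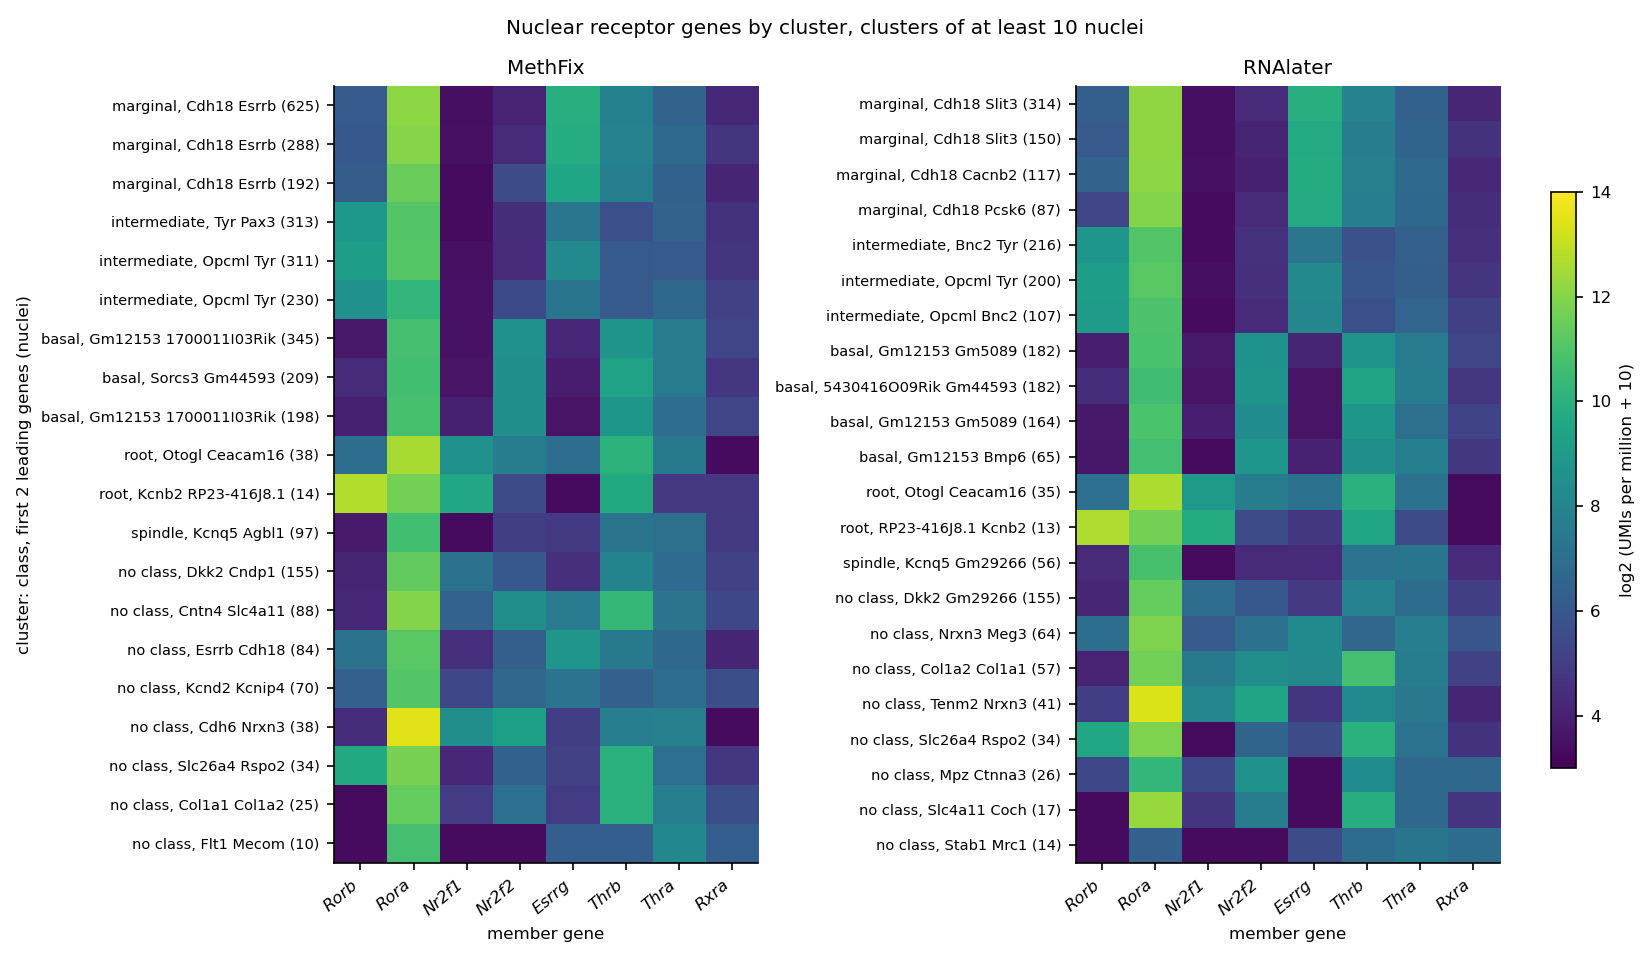
Level of each member (colour scale, log2 of 10 added to the CPM) in each cluster of at least 10 nuclei, grouped by class, with the first 2 leading genes and the number of nuclei on the axis, for both libraries. Esrrg is high across the marginal clusters and Nr2f2 across the basal clusters. Rorb is high in the intermediate clusters, in the Slc26a4 and Rspo2 cluster and in the small Kcnb2 and Dgkb cluster. In the last it is at 6695 CPM in MethFix and 6565 in RNAlater.

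The other nuclear receptors place the members in the family. Of 49 receptor genes, 28 were abundant enough to be tested by the 2-fold rule, and 14 were called in some class: 6 in marginal, 1 in intermediate, 2 in basal, 5 in root and 0 in spindle nuclei. As shares of the 28 these were 21.4%, 3.57%, 7.14%, 17.9% and 0, beside 4.64%, 3.61%, 4.41%, 4.37% and 7.48% of all genes tested, so the intermediate count is at the background. Of the 41 that are not members, 20 were tested and 9 called. The members were chosen with earlier results of these data known, so the shares of the 28 rest partly on that choice. Among the 20, the shares were 25%, 5%, 5%, 10% and 0 in the same order of classes. Without the members, the root share was thus lower, on 2 genes, and the basal share, on 1 gene, was near the background. No background was taken for a call in some class, so the totals of 14 and 9 have none. Esrrb, the close relative of Esrrg, was at 2949 and 2951 CPM in marginal nuclei, and Nr6a1 (germ cell nuclear factor) at 765 and 795. Vdr, the vitamin D receptor, was at 108 and 109.5 and Esrra at 114 and 128 in marginal nuclei. Rarb, a retinoic acid receptor, was at 514 and 552 in intermediate nuclei, and Nr3c2, the mineralocorticoid receptor, at 1551 and 1543 in basal nuclei. Of the root calls, that of Nr1d1 rests on 12 and 10 UMIs.

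Of the coregulators, which receptors recruit to activate or silence genes, 16 were tested. Called were 1 in marginal, 1 in intermediate, 2 in basal, 1 in root and 1 in spindle nuclei. As shares these were 6.25%, 6.25%, 12.5%, 6.25% and 6.25%, beside 4.64%, 3.61%, 4.41%, 4.37% and 7.48% of all genes tested. All but the basal count, of 2 genes, are thus near the background. Ppargc1a, the coactivator known for its partnership with estrogen-related receptors, was at 671 and 682 CPM in marginal nuclei and at 422 and 449 in intermediate nuclei. These classes also had the highest Esrrg levels, and a link between the genes was not tested. Ncoa3 was at 495 and 614 in basal nuclei and Ncoa1 at 689 and 694 in root nuclei. Only 4 of 14 retinoid genes were abundant enough to be tested. Of these, Aldh1a2, which makes retinoic acid, was called in marginal nuclei at 159.7 and 156. Dhrs3, which reduces retinal, was called in intermediate nuclei at 239 and 285. Each is 25% of the 4, a share that rests on 1 gene. Of 12 thyroid hormone genes 7 were tested. The transporter genes Slc16a10 (218 and 222) and Slc7a5 (162 and 164) were called in intermediate nuclei, or 28.6% of the 7. Slco1c1 (109 and 106) was called in basal nuclei, or 14.3%.

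Genes with the most similar pattern over clusters were found for each member by Pearson's r of log2 levels with 10 CPM added, averaged over both libraries, over 18 clusters of MethFix and 19 of RNAlater, among 7352 genes. The clusters share barcodes between libraries, those of under 20 nuclei, the Kcnb2 and Dgkb cluster among them, were left out, and the values describe likeness only. Nr2f2 had the closest match, with Scara3 at an r of 0.95 and Lpar1 at 0.94, followed by Esrrg with Slc16a7 at 0.92 and Ampd3 at 0.88. Thrb was nearest to Smad6 at 0.86, Rorb to Arfgef3 at 0.84, Thra to Ccdc136 at 0.84 and Nr2f1 to Nckap5 at 0.83. Rora and Rxra had weaker matches, with Btrc at 0.81 and Msl1 at 0.75.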

How the data were processed

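For each library the authors deposited raw counts of UMIs per gene and barcode, made with Cell Ranger 3.0.1 against GRCm38, per the submitters' processing notes and the file headers, with no normalization and only the barcodes called as cells; Scanpy 1.4.5 is also named there. Gene coordinates on GRCm38 were taken from GENCODE M21, where 48349 of the 48816 identifiers were found after dropping version suffixes. Promoter windows are from RefSeq on GRCm38.p6. The sequences of the member proteins were not used here.

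Nuclei with at least 200 genes, at most 8000 UMIs and at most 10% mitochondrial UMIs were kept, after removal of doublets with Scrublet as run by scanpy 1.11.5 (224 in MethFix and 18 in RNAlater). Clusters came from leidenalg 0.10.2 on 4000 variable genes, 30 principal components and 10 neighbours (resolution 1 in MethFix and 1.5 in RNAlater). UMIs were summed per class and divided by the class total. For each member the log2 ratio of its highest gate to the mean of the other 4 was taken, with a gate at 0 UMIs set to a floor of 3. A gene was called when this ratio reached 2-fold in both libraries, among genes with at least 50 UMIs in each. A promoter match needed every letter of the motif. Scripts ran in Python 3.11.15 with pandas 2.3.3, scipy 1.17.1 and numpy 2.4.6, and edgeR 4.0.16 gave the TMM factors of an alternative only. The ratio was also run on simulated Poisson counts drawn from a shared profile. That check looked at well-counted raised genes and left out the spindle gate. It cannot speak for gates at the floor or for counts concentrated in a single nucleus.

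With 1 library per method and shared barcodes, no test between groups was run. The members and gene lists were chosen with earlier results of these data known, and the class definition by cluster level was set after seeing the data. The text names the members, listed genes that were called (some are not reported here), the putative targets named by the study and the 3 genes most like each member, of which the closest are given. The study's control dataset was not analysed here.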

Additional observations from a re-analysis of the deposited data

Results flagged for a closer look

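Several member levels outside the 5 classes exceeded those inside them, and these clusters enter no comparison above. A cluster led by Cdh6, Nrxn3 and Kcnb2 in MethFix (38 nuclei) had Rora at 11517 CPM and Nr2f2 at 592, and a cluster led by Tenm2, Nrxn3 and Kcnb2 in RNAlater (41 nuclei) had Rora at 10478 and Nr2f2 at 669. Thrb reached 1290.4 CPM in a MethFix cluster led by Cntn4 and Slc4a11 (88 nuclei) and 1725 in an RNAlater cluster led by Col1a2 and Col1a1 (57 nuclei). The fibrocyte or bone markers summed to 4034 CPM in the former and 6815 in the latter of these Thrb-rich clusters. No cell type was assigned to any of the clusters named here.

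The ratio of Rxra differed in sign between the libraries, although basal nuclei had its highest level in both, at 30.1 and 21.2 CPM. The log2 ratio of its basal gate to the mean of the other gates was 0.77 in MethFix and -0.80 in RNAlater, where root and spindle nuclei had 0 UMIs and were set to the floor. With that floor the mean of the other gates in RNAlater was 36.9 CPM. Averaged over both libraries, the ratio was 1.17 with 0 kept at 0. A difference between the libraries was not tested.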

How the results depend on the processing

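Averaged over both libraries, the log2 ratio of the highest gate to the mean of the other gates was 4.13 for Rorb, 0.95 for Rora, 4.39 for Nr2f1, 2.81 for Nr2f2, 3.42 for Esrrg, 1.80 for Thrb, 1.02 for Thra and -0.02 for Rxra. It was recomputed under 14 other settings chosen at the start and 5 added after seeing the data, and only Rxra changed sign. Nr2f2 and Esrrg were highest in the same class in all 31 values computed per library and setting, Rora, Nr2f1, Thrb and Thra in 30, Rorb in 26 and Rxra in 24. Values that moved beyond the counting interval follow. With all deposited barcodes Rora was at 1.12. With every gate marker UMI required to be of 1 class, Rorb was at 1.92, Rora 1.13, Nr2f2 1.63, Esrrg 1.91 and Thra 0.23. With only Kcnq1, Dct, Cldn11, Epyc and Anxa1 as gate markers, Rorb was at 0.31, Rora 1.08, Esrrg 2.97 and Thrb 2.20. With only Stac, Tyr, Cldn11, Ceacam16 and Anxa1, Nr2f1 was at 6.36 and Nr2f2 at 3.84. Classes by the cluster rule set at the start gave Nr2f1 6.04, and classes by cluster level gave Rora 1.09, Nr2f1 6.94 and Thrb 2.14. The MethFix barcodes not shared gave Esrrg 2.81, and no root ratio was taken from their 3 root nuclei. The mean over nuclei gave Rorb 3.71. A level of 0 kept at 0 gave Nr2f1 6.07, and leaving out the spindle gate gave Rora 0.74. Leaving out the nucleus with the most Rorb UMIs gave Rorb 3.25. Leaving out the Kcnb2 and Dgkb cluster gave Rorb 0.23 and Rora 1.18. The cause of the other shifts was not tested.

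Rxra had a positive ratio with a gate of at least 1 UMI (0.54), a gate share of at least 0.5 (0.64), the Stac and Tyr gate set (0.62), the cluster rule set at the start (0.70), the mean over nuclei (0.01), TMM scaling (0.17), classes by cluster level (0.90), 0 kept at 0 (1.17) and no spindle gate (0.74). TMM scaling changed the genes called in spindle nuclei from 782 to 430. Keeping 0 at 0 gave 1085 in marginal, 897 in intermediate, 807 in basal and 772 in root nuclei, beside 485, 377, 461 and 457.

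No paired analysis was possible because there is 1 library per method and no test. Depth limits the spindle gate (8 nuclei in RNAlater) and Rxra (0 to 2 UMIs in root and spindle nuclei).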

Other observations

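Further levels outside the 5 classes are given as values. A cluster led by Dkk2, of 155 nuclei in each library, had Nr2f1 at 129 and 112 CPM. The Reissner membrane markers summed to 2653 and 2767 CPM there, and the spindle markers, which include Dkk2, to 5900.0 and 5805. The study reports Nr2f1 in cells of Reissner's membrane. A small cluster led by 4932411E22Rik and Dytn, of 8 and 9 nuclei, had Rorb at 3113 and 2657 CPM, which is above the intermediate gate. A cluster of RNAlater led by Stab1 and Mrc1, genes known from macrophages, of 14 nuclei, had Rora at 72.7 CPM, beside 1502 or more in each gate. Nr2f1 was at 337 and 258 CPM in the clusters led by Nrxn3 and Kcnb2 that also had the high Rora levels.

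Across clusters the members also paired among themselves, as a description over 18 and 19 clusters of shared nuclei. The Pearson correlation of log2 levels was 0.81 and 0.75 for Nr2f2 with Thra, 0.65 and 0.56 for Thrb with Thra, and -0.62 and -0.56 for Rorb with Thra.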
